A study of Mus musculus with 8 samples.

Results

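This set holds 10 of the 50763 genes listed in the count tables, chosen by symbol as markers of inflammatory monocytes or as neighbours of those markers in the Ly6 family. They are Ly6c2, Ly6c1, Ly6a, Ly6i, Ccr2, Plac8, Lyz2, Vcan, Fn1 and F10, and all 10 were among the 16608 genes with enough reads to be tested. RNA came from phagocytes sorted out of mouse brains 23 days after GL261-mCherry-EGFP glioma cells were injected. GL261 is a mouse glioma line, and the collected cells were live, carried CD45.2 (the leukocyte surface marker) and carried the mCherry of the tumour. Hosts were muMT or wild-type C57BL/6 (WT) mice, each given isotype IgG or anti-CTLA-4, which makes 4 groups, with 2 libraries in each of them. muMT mice carry a disrupted membrane exon of the IgM heavy chain and lack mature B cells but keep T cells, and CTLA-4 is an inhibitory receptor of T cells. All 4 groups carried the tumour and all cells passed the mCherry gate, so no group stands for monocytes of blood or of a tumour-free brain. The labels do not say whether the hosts were littermates, or whether a group's libraries are from different mice, so a p-value speaks of the spread among libraries, which may be technical.

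Classical or inflammatory monocytes leave the bone marrow and reach inflamed tissue through CCR2, the receptor for the chemokines CCL2, CCL7, CCL8 and CCL12. In the mouse they are recognised by Ly6C, a small lipid-anchored surface protein made from 2 very similar genes, Ly6c1 and Ly6c2. In tissue they can become macrophages, and Ly6C and CCR2 are commonly lost on the way. In brain tumours such cells sit beside resident microglia, which express little Ly6C or CCR2.

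The monocyte label rests mostly on Ly6c2, and its counts depend on telling it apart from Ly6c1. The first 300 bases of both coding frames are printed here because a read from a shared stretch cannot be given to either gene. Both were read 5′ to 3′ from the GENCODE M21 transcripts (GRCm38), and capitals mark the 7 positions at which these stretches differ.
Ly6c2: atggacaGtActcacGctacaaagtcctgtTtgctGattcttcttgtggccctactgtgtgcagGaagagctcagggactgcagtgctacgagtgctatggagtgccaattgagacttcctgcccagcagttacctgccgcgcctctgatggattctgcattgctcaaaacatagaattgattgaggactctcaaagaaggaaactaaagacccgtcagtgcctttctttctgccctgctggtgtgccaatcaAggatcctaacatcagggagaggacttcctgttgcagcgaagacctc
Ly6c1: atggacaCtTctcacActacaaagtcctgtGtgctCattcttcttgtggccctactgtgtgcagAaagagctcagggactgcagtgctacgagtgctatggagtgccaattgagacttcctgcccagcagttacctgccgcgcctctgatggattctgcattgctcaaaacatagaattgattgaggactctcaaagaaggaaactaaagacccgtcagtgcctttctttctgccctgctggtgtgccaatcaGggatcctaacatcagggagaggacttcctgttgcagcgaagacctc
Each whole frame was 396 bases long, and 387 bases were identical (97.7%), with 9 that differed. The longest identical run was 188 bases. Of the stretches of 50 bases in all coding transcripts of a gene, 31.2% of those of Ly6c2 and 32.8% of those of Ly6c1 also occurred in a transcript of another gene. That share was 19.0% for Ly6a, 15.4% for Lyz2 (shared with Lyz1), 4.76% for Ly6i, 1.91% for Ccr2 and 1.67% for F10, and it was 0 for Plac8, Vcan and Fn1. At 100 bases it was 14.9% for Ly6c2 and 10.1% for Ly6c1. Reads that map to several places were set aside in these tables, so the levels of the Ly6c genes, Ly6a and Lyz2 leave out part of their RNA and can hold a few reads of their paralog.

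Between 24784639 and 31289104 reads were assigned to genes per library, and the 10 genes took 0.621% to 1.12% of them, most of it Lyz2. Levels are given as counts per 1000000 assigned reads (CPM), scaled between libraries by edgeR's TMM factors, which ranged from 0.969 to 1.02. Libraries of a group correlated at r = 0.992 or more over log2 CPM of all tested genes, and libraries of different groups at 0.982 or less. The share of reads that fell in no gene was 18.6% to 20.8% in muMT libraries and 28.4% to 33.3% in WT libraries, and its part in the host comparisons was not tested. Markers of phagocytes were present in every group: group means of Ptprc (CD45) were 990 to 1134 CPM and those of Csf1r (the CSF-1 receptor) 1527 to 1894 CPM. Itgam (CD11b) lay at 414 to 487 CPM in 3 groups and at 708 CPM in WT anti-CTLA-4. No unsorted cells were measured, so these levels do not give the purity of the sort.

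Taken as a set, the genes did not behave as a single measure of monocyte identity. With anti-CTLA-4 in WT hosts 6 of the 10 rose, 1 fell and 3 were not called, where 14.7% of all tested genes rose and 15.9% fell (30.5% in either direction). In muMT hosts 9 rose, none fell and 1 was not called, against 22.1% and 20.4% of all tested genes (42.5% in either direction). The shares in both hosts apply likewise to the antibody counts of the gene lists below. The antibody effect itself differed between the hosts for 8 of the 10, being higher in WT for 5 and lower in WT for 3, where 17.5% and 19.8% of all tested genes differed that way (37.3% in either direction). Called means an adjusted p under 0.05 in edgeR's quasi-likelihood test, with Benjamini-Hochberg adjustment over all tested genes. The genes were picked as a family with results of these libraries known, so these counts describe them and do not test them. No member had an unadjusted p under 0.05 for a fall in muMT, and DESeq2 called 0 there too. Libraries of the groups did not overlap for 8 members in WT and 9 in muMT, as for 64.3% and 68.5% of all tested genes, and between hosts for 9 under isotype and 10 under anti-CTLA-4, as for 66.2% and 79.0%.

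The levels fell into a few patterns. Ly6c2, Ly6i, Ly6a and Plac8 were lowest in muMT isotype, next in WT isotype, next in muMT anti-CTLA-4 and highest in WT anti-CTLA-4, with no overlap between libraries of neighbouring groups. Here and below, neighbouring groups are those next to each other when a gene's means are sorted. Of all tested genes, 66.2% did not overlap between hosts under isotype and 79.0% under anti-CTLA-4. The share for WT isotype against muMT anti-CTLA-4 was not counted. Ccr2 and F10 were lowest in muMT isotype and highest in muMT anti-CTLA-4, and Fn1 was also highest there. Vcan followed the host and not the antibody. Ly6c1 moved little and Lyz2 followed the antibody in both hosts.

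**Figure D1:**
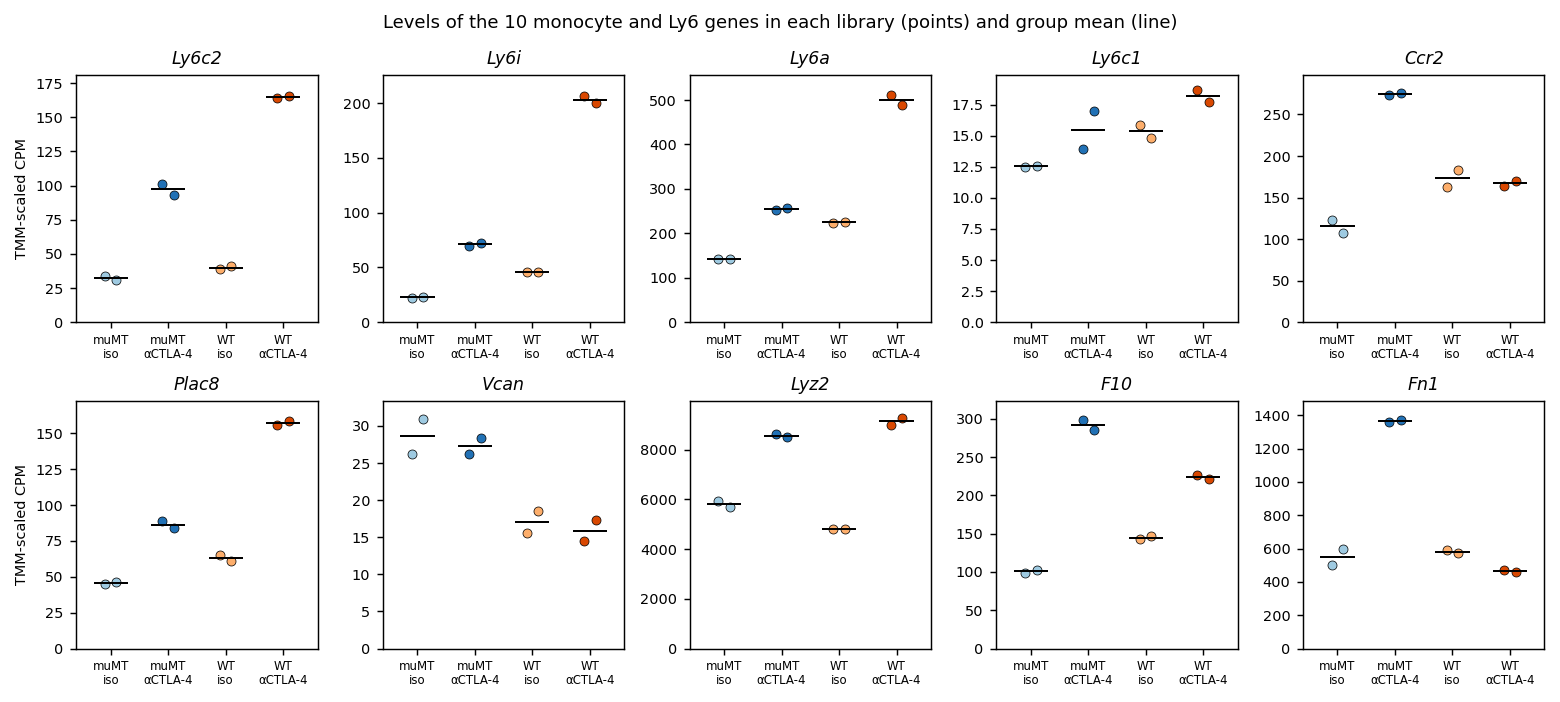
Level of each of the 10 genes (TMM-scaled CPM, linear axes from 0, a separate scale per gene) in the 2 libraries of each group (points), with the group mean as a line. Ly6c2, Ly6i, Ly6a and Plac8 peaked in WT anti-CTLA-4, whereas Ccr2, F10 and Fn1 peaked in muMT anti-CTLA-4.

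Ly6c2, the main source of Ly6C on monocytes, measured 34.0 and 30.7 CPM in muMT isotype, 101 and 93.1 CPM in muMT anti-CTLA-4, 39.0 and 41.1 CPM in WT isotype, and 164 and 166 CPM in WT anti-CTLA-4. The treated libraries were well above the control libraries in each host, and the hosts were much closer under isotype than under anti-CTLA-4. The gene rose 4.12-fold in WT (log2 fold change 2.04 ± 0.06 SE, adjusted p = 5.40e-22) and 3.00-fold in muMT (1.59 ± 0.06, adjusted p = 5.40e-19). In WT that change stood at the 99.6th percentile of all tested genes.

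Ly6c1, its near copy, is expressed by endothelial cells as well as leukocytes. It measured 12.5 and 12.6 CPM in muMT isotype, 13.9 and 17.0 CPM in muMT anti-CTLA-4, 15.9 and 14.8 CPM in WT isotype, and 18.7 and 17.7 CPM in WT anti-CTLA-4. The libraries of the 2 middle groups overlapped. Its change in WT was 0.24 ± 0.10 on the log2 scale and was not called (adjusted p = 0.0652, 95% interval 0.04 to 0.45 before adjustment), and in muMT it rose by 0.30 ± 0.10 (adjusted p = 0.0176). That muMT call is fragile: without muMT anti-CTLA-4 replicate 2 the value was 0.16 with an adjusted p of 0.35 (range over all alternatives 0.00427 to 0.35).

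Because of their near identity, the pair was also compared within libraries. There were 2.44 to 2.77 reads of Ly6c2 per read of Ly6c1 in the 4 isotype libraries, 7.28 and 5.48 in muMT anti-CTLA-4, and 8.79 and 9.38 in WT anti-CTLA-4. Ly6c2 thus outnumbered its paralog by more in every treated library than in any control library. Per kilobase of the longest coding transcript, mean levels over the groups were 102 CPM for Ly6c2 and 18.2 CPM for Ly6c1.

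Ly6i, a further Ly6 gene of myeloid cells, was the member with the widest span. It measured 22.4 and 23.4 CPM in muMT isotype, 69.8 and 72.3 CPM in muMT anti-CTLA-4, 45.7 and 46.2 CPM in WT isotype, and 206 and 200.0 CPM in WT anti-CTLA-4. Means of the highest and the lowest group differed 8.87-fold, and no libraries of neighbouring groups overlapped. The gene rose 4.42-fold in WT (2.14 ± 0.05, adjusted p = 1.17e-23) and 3.10-fold in muMT (1.63 ± 0.06, adjusted p = 1.52e-19).

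Ly6a encodes Sca-1, a marker of blood stem cells that endothelium carries too and that interferons induce in many cells. Its levels were 143 and 142 CPM in muMT isotype, 253 and 258 CPM in muMT anti-CTLA-4, 224 and 226 CPM in WT isotype, and 512 and 490 CPM in WT anti-CTLA-4. WT isotype lay close under muMT anti-CTLA-4, and WT anti-CTLA-4 far above all other libraries. It rose 2.22-fold in WT (1.15 ± 0.04, adjusted p = 3.97e-19) and 1.79-fold in muMT (0.84 ± 0.05, adjusted p = 1.29e-15). Reads of Ly6i per read of Ly6a went from 0.157 to 0.164 in muMT isotype to 0.402 to 0.408 in WT anti-CTLA-4, so these neighbours did not move by equal factors.

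These 4 genes lie side by side on chromosome 15, in the order Ly6i, Ly6a, Ly6c1 and Ly6c2, with Ly6e before them and Ly6a2 and Ly6g after them (RefSeq, GRCm38.p6). Of 20 protein-coding genes in that stretch 7 were tested and 10 had no read. Ly6e, a broadly expressed interferon-induced gene, rose by 0.53 ± 0.05 in WT and 0.24 ± 0.05 in muMT (edgeR adjusted p = 5.69e-11 and 6.22e-05). Ly6a2 had only 191 reads in all libraries together, and rose by 2.61 ± 0.42 in WT and 2.74 ± 0.49 in muMT (adjusted p = 1.00e-05 and 3.07e-05). How many of those reads came from other Ly6 genes was not tested. Ly6k, with 67 reads, fell in muMT (-1.89 ± 0.62, adjusted p = 0.0145) and was not called in WT. Between Ly6a and Ly6c2, both of which rose, Ly6c1 showed the smallest change of the tested genes in WT.

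**Figure D2:**
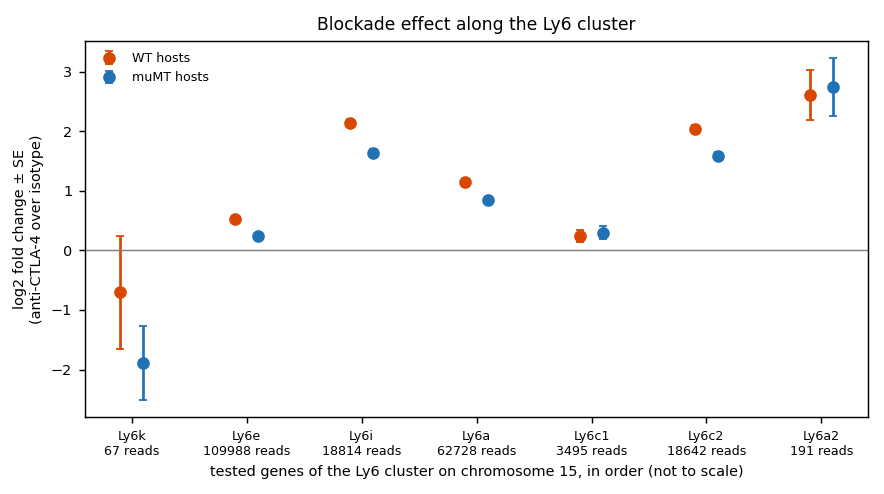
Log2 fold change ± SE of anti-CTLA-4 over isotype (vertical axis) for the 7 tested genes of the Ly6 stretch of chromosome 15 in gene order, in WT (orange) and muMT (blue), with each gene's reads over all 8 libraries. Ly6i, Ly6c2 and the sparsely counted Ly6a2 lie above 1.5 in both hosts, with Ly6c1 near 0.3 between them.

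Of the Ly6 and uPAR family outside the members, 36 genes were listed, 9 could be tested and 11 had no read. One rose and 1 fell in each host: Ly6e rose in both, Ly6g6e fell in WT (-1.77 ± 0.46, adjusted p = 0.00361) and Ly6k in muMT. Ly6a2, which rose in both hosts, is not among the listed genes and so not in these counts. The median of the 9 was 0.03 in WT and -0.08 in muMT, beside -0.0096 and -0.0034 over all tested genes. Ly6g, which marks neutrophils and is detected together with Ly6C by the Gr-1 antibody, had 3 reads in muMT isotype, 1 read in muMT anti-CTLA-4, 8 reads in WT isotype and no read in WT anti-CTLA-4. A count of 0 in a library allows up to 3 reads, or 0.0959 to 0.121 CPM at these depths, as far as counting error goes.

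Upstream sequence is shown for the same Ly6c pair, since their coding frames are nearly equal and their changes were not. Each window spans 250 bases before to 50 after a RefSeq start (GRCm38.p6), on the minus strand, written 5′ to 3′. Capitals mark AGGAAGT (or ACTTCCT on the other strand), a core that the myeloid factor PU.1 and other ETS proteins can bind.
Ly6c2, chr15:75111922-75112221: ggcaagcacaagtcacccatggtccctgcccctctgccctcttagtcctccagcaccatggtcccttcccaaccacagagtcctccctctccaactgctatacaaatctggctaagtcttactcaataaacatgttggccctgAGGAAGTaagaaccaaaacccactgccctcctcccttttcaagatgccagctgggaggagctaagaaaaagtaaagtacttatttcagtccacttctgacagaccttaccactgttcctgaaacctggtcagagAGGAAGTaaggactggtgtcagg
Ly6c1, chr15:75048788-75049087: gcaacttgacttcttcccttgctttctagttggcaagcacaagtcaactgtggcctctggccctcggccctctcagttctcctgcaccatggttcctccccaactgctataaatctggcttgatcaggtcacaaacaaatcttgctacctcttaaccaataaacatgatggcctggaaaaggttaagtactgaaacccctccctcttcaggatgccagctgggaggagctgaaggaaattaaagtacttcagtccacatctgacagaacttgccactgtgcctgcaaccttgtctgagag
Aligned end to end, these windows shared 208 of 334 columns (62.3%), with 68 columns of gaps. The Ly6c2 window held the AGGAAGT core at 2 positions, -107 and 28 from the start, and the Ly6c1 window printed held no whole copy. That window ends inside a copy, which a further Ly6c1 window from another annotated start holds whole, so the counts of the printed windows depend on where they end. Windows were at hand for 7 of the 10 members (not for Ly6i, Ly6a and Fn1), and the core was present for Ly6c2, Ly6c1 and Lyz2, where 9.35% of 32851 windows of this length hold it. A member was counted if any of its windows held the letters, and Ly6c2, Ly6c1 and Plac8 had 2 windows each. The shares over all windows are per window, so they are not a like measure. The letters TTGCNNAA (C/EBP) were found for Plac8 (10.8% of all windows), and neither TTCNNNGAA (the interferon-gamma-activated site, 8.30%) nor 2 copies of GAAA with 2 bases between them (the interferon-stimulated response element, 3.44%) for any of the 7. Both strands were searched, and a match is a description of letters, not a bound site.

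Ccr2, the receptor that brings monocytes into tissue, measured 123 and 107 CPM in muMT isotype, 273 and 275 CPM in muMT anti-CTLA-4, 163 and 183 CPM in WT isotype, and 164 and 170 CPM in WT anti-CTLA-4. The WT groups overlapped, whereas the muMT groups were far apart with the WT libraries between them. In muMT it rose 2.38-fold (1.25 ± 0.06, adjusted p = 4.73e-17). In WT the change was -0.05 ± 0.06 (adjusted p = 0.559), with a 95% interval from -0.17 to 0.07 before adjustment that excludes a change of the muMT size. Hence Ccr2 and Ly6c2, which are often read together as the signature of inflammatory monocytes, came apart in WT. Reads of Ccr2 per read of Ly6c2 were 4.19 and 4.46 in WT isotype but 1.00 and 1.02 in WT anti-CTLA-4. The same ratio was 3.63 and 3.50 in muMT isotype against 2.69 and 2.96 in muMT anti-CTLA-4. Each value is from bulk RNA, in which fewer cells of a type and less RNA per cell cannot be told apart.

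The ligands of CCR2 split in WT and moved together in muMT. All 4 rose in muMT: Ccl7 by 1.27 ± 0.06, Ccl8 by 0.97 ± 0.04, Ccl2 by 0.96 ± 0.05 and Ccl12 by 0.92 ± 0.06 on the log2 scale (largest adjusted p = 2.11e-14). In WT, Ccl7 rose by 1.31 ± 0.06 and Ccl2 by 1.12 ± 0.06, Ccl8 fell by 1.31 ± 0.04, and Ccl12 measured 0.02 ± 0.06 (adjusted p = 0.837). Ccl8 was the most abundant of them, at 174 and 173 CPM in muMT isotype, 338 and 343 CPM in muMT anti-CTLA-4, 441 and 428 CPM in WT isotype and 174 and 176 CPM in WT anti-CTLA-4. Its antibody effect differed between hosts by -2.29 ± 0.06, and that of Ccl12 by -0.90 ± 0.08 (adjusted p = 1.10e-22 and 1.84e-10), while those of Ccl2 and Ccl7 were not called different (0.16 ± 0.08 and 0.04 ± 0.08, adjusted p = 0.1 and 0.774). Summed over the 4 ligands, levels were 388 to 402 CPM in muMT isotype, 790 to 807 CPM in muMT anti-CTLA-4, 611 to 627 CPM in WT isotype and 499 to 507 CPM in WT anti-CTLA-4. Against WT isotype, the lower sum of muMT isotype rested mostly on Ccl8, at mean levels of 173 against 435 CPM. Ccl2 and Ccl7 were lowest in WT isotype, at mean levels of 57.1 and 51.3 CPM against 90.5 and 65.2 CPM in muMT isotype. Against WT anti-CTLA-4, Ccl8 was nearly equal (175 CPM), and Ccl2, Ccl7 and Ccl12 were lower in muMT isotype. Against muMT anti-CTLA-4 all 4 were lower. Mouse CCL8 is known mainly as an agonist of another receptor, CCR8.

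Plac8, a small cysteine-rich protein abundant in immature myeloid cells and monocytes, measured 45.3 and 46.5 CPM in muMT isotype, 88.8 and 83.8 CPM in muMT anti-CTLA-4, 65.2 and 61.1 CPM in WT isotype, and 156 and 159 CPM in WT anti-CTLA-4. No libraries of neighbouring groups overlapped. It rose 2.49-fold in WT (1.32 ± 0.05, adjusted p = 2.21e-18) and 1.88-fold in muMT (0.91 ± 0.06, adjusted p = 4.09e-14). Among all pairs of members, Plac8 and Ly6a had the most similar profile, with a root mean square difference of 0.11 in centred log2 CPM over the 8 libraries.

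Lyz2 encodes lysozyme M, made in quantity by monocytes, macrophages and neutrophils. It was by far the most abundant member, at 5939 and 5703 CPM in muMT isotype, 8632 and 8498 CPM in muMT anti-CTLA-4, 4817 and 4799 CPM in WT isotype, and 9009 and 9265 CPM in WT anti-CTLA-4. Treated libraries were above control libraries in both hosts. Under isotype the muMT libraries were above the WT libraries. Under anti-CTLA-4 the WT libraries were above the muMT libraries by only 0.09 ± 0.04 on the log2 scale, a call that was lost without any 1 of the 4 anti-CTLA-4 libraries (0.07 to 0.11) and with reads counted on either strand (0.0079, adjusted p = 0.877). It rose 1.90-fold in WT (0.93 ± 0.04, adjusted p = 2.05e-18) and 1.47-fold in muMT (0.56 ± 0.04, adjusted p = 3.62e-13). Its neighbour and copy Lyz1, whose coding frame is 95.1% identical, had 285, 489, 186 and 375 reads in the groups in the order above and rose by 1.13 ± 0.17 and 0.79 ± 0.15 in WT and muMT. How many of those reads came from Lyz2 was not tested.

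Fn1 and F10 are secreted products that classical monocytes and their tissue descendants make. Fn1 encodes fibronectin, a matrix protein that fibroblasts make as well. It measured 500.5 and 596 CPM in muMT isotype, 1362 and 1370.5 CPM in muMT anti-CTLA-4, 591 and 572 CPM in WT isotype, and 470.0 and 459 CPM in WT anti-CTLA-4. The hosts overlapped under isotype, and the antibody moved them in opposite directions. Fn1 rose 2.49-fold in muMT (1.32 ± 0.05, adjusted p = 9.31e-17) and fell by 0.32 ± 0.05 on the log2 scale in WT (adjusted p = 2.80e-05). Reads of Fn1 per read of Lyz2 were 0.158 and 0.161 in muMT anti-CTLA-4 and 0.0522 and 0.0496 in WT anti-CTLA-4.

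F10 encodes coagulation factor X, the protease that the complex of tissue factor and factor VII activates. It measured 98.9 and 103 CPM in muMT isotype, 298 and 286 CPM in muMT anti-CTLA-4, 143 and 147 CPM in WT isotype, and 226 and 221 CPM in WT anti-CTLA-4. No libraries of neighbouring groups overlapped. It rose 2.89-fold in muMT (1.53 ± 0.05, adjusted p = 2.71e-21) and 1.54-fold in WT (0.63 ± 0.05, adjusted p = 4.07e-12). F7, which encodes factor VII and is the next gene to F10 on chromosome 8, rose by 1.51 ± 0.05 in muMT and fell by 0.50 ± 0.05 in WT. Proz, on the other side of F10 and with 344 reads, rose by 2.61 ± 0.30 in WT and 1.26 ± 0.35 in muMT. Of 23 tested partners of factor X (its cofactors, inhibitors and the fibrinolytic genes), 5 rose and 7 fell in WT, and 6 rose and 8 fell in muMT. Medians were 0.02 and -0.11, near those of all tested genes. In WT, Procr (the endothelial protein C receptor) rose by 1.87 ± 0.07 and F3 (tissue factor) by 1.41 ± 0.11, and F13a1 fell by 0.67 ± 0.05. In muMT, Serpine2, Plat and F13a1 fell, by 1.29 ± 0.07, 1.20 ± 0.09 and 0.81 ± 0.05.

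Vcan encodes versican, a large proteoglycan that monocytes express. It had the lowest level per kilobase of the 10, at 26.2 and 31.0 CPM in muMT isotype, 26.2 and 28.3 CPM in muMT anti-CTLA-4, 15.6 and 18.5 CPM in WT isotype, and 14.5 and 17.3 CPM in WT anti-CTLA-4. All muMT libraries were above all WT libraries, and the antibody groups of a host overlapped. The antibody effect was -0.10 ± 0.10 in WT and -0.07 ± 0.09 in muMT (adjusted p = 0.521 and 0.587), with 95% intervals of -0.31 to 0.11 and -0.26 to 0.12 before adjustment. Among 27 tested partners of versican and fibronectin (integrins, hyaluronan and matrix genes, proteases), 6 rose and 2 fell in WT and 4 rose and 18 fell in muMT, with medians of 0.03 and -0.56. Tlr2, a receptor for versican fragments, rose by 0.65 ± 0.04 in WT, as did the hyaluronan receptor Cd44 (0.50 ± 0.04) and the fibronectin receptor subunit Itga5 (0.49 ± 0.06). In muMT the crosslinking enzyme Tgm2 rose by 0.81 ± 0.04, while Lox, Adamts1 and Fbn1 fell by 1.66 ± 0.11, 0.71 ± 0.05 and 1.32 ± 0.10. The summed level of 16 markers of fibroblasts and mural cells was 527 to 535 CPM in muMT isotype, 181 CPM in muMT anti-CTLA-4, 334 to 346 CPM in WT isotype and 226 to 236 CPM in WT anti-CTLA-4, none of the 16 being without a read. Of the 16, 15 fell in muMT, where Fn1 rose, and 13 fell in WT. Their part in the values of Fn1 and Vcan was not tested. Such cells lack CD45, which the sort selected for, and whether their RNA was carried along was not tested.

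**Figure D3:**
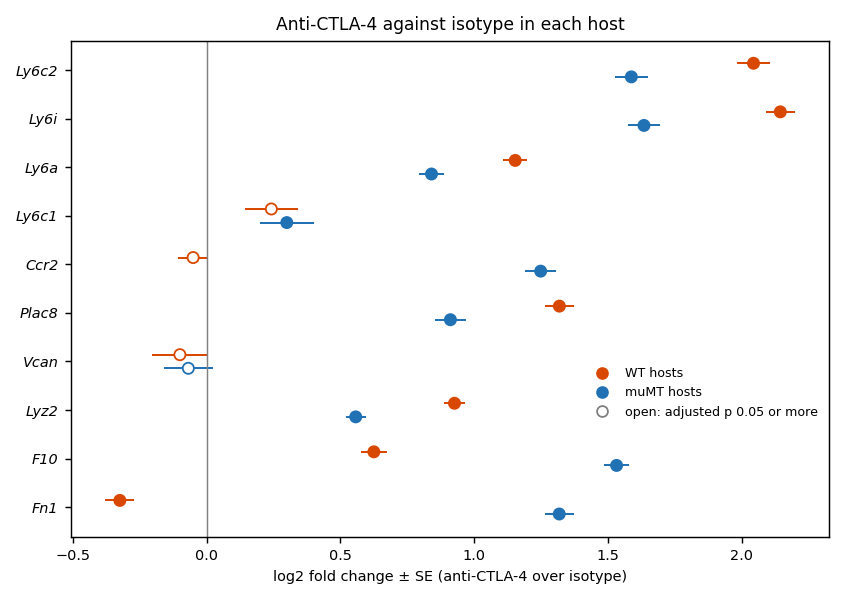
Log2 fold change ± SE of anti-CTLA-4 over isotype for each of the 10 genes in WT (orange) and muMT (blue) hosts, with open symbols where the adjusted p was 0.05 or more. Ccr2, F10 and Fn1 lie further right in muMT, and Ly6c2, Ly6i, Ly6a, Plac8 and Lyz2 further right in WT.

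The interaction contrast asks whether the antibody changed a gene by a different factor in the 2 hosts. Fn1 differed most, by -1.64 ± 0.08 on the log2 scale (WT minus muMT, adjusted p = 2.32e-15), and was the only member with called changes of opposite sign. Ccr2 differed by -1.30 ± 0.08 (adjusted p = 1.25e-13) and F10 by -0.91 ± 0.07 (adjusted p = 3.50e-12), so the rise was smaller in WT for F10 and not called in WT for Ccr2. In the other direction the WT rise exceeded the muMT rise for Ly6i by 0.51 ± 0.08, Ly6c2 by 0.46 ± 0.09, Plac8 by 0.41 ± 0.08, Lyz2 by 0.37 ± 0.05 and Ly6a by 0.31 ± 0.06 (largest adjusted p = 0.000187). Ly6c1 and Vcan were not called, at -0.06 ± 0.14 and -0.03 ± 0.14 (adjusted p = 0.79 and 0.888). The differences of the 5 rising genes stood between the 69.9th and 78.1st percentile of all tested genes, and those of Ccr2, F10 and Fn1 between the 1.65th and the 5.80th.

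Without treatment the hosts already differed. Comparing WT isotype with muMT isotype, 7 members were higher in WT and 2 lower, where 19.9% of tested genes were higher and 19.2% lower (39.2% in either direction). Ly6i was 2.01-fold higher in WT (1.01 ± 0.06, adjusted p = 6.24e-14), followed by Ly6a at 0.66 ± 0.05, Ccr2 at 0.58 ± 0.06, F10 at 0.52 ± 0.05, Plac8 at 0.46 ± 0.06, Ly6c2 at 0.31 ± 0.07 and Ly6c1 at 0.29 ± 0.10. Vcan was lower in WT by 0.74 ± 0.10 (log2 fold change -0.74, adjusted p = 3.49e-07) and Lyz2 had a log2 fold change of -0.28 ± 0.04 (adjusted p = 7.64e-07). Fn1 was not called (0.09 ± 0.05, adjusted p = 0.216). Its value was 0.21 without muMT isotype replicate 2 and -0.04 without muMT isotype replicate 1, so its sign depended on which of these libraries was kept. The Ly6c1 call was lost with muMT isotype replicate 1 left out (0.28, adjusted p = 0.0611) and with WT isotype replicate 1 left out (0.25, adjusted p = 0.151).

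Under anti-CTLA-4, 6 members were higher and 4 lower in WT, where 27.4% of tested genes were higher and 28.7% lower (56.1% in either direction). Ly6i was 2.86-fold higher in WT (1.51 ± 0.05, adjusted p = 1.51e-20), Ly6a 1.96-fold (0.97 ± 0.04), Plac8 1.82-fold (0.87 ± 0.05) and Ly6c2 1.70-fold (0.76 ± 0.06). Fn1 was 2.94-fold lower in WT (-1.56 ± 0.05, adjusted p = 2.12e-18), Vcan 1.71-fold lower (-0.77 ± 0.10), Ccr2 1.64-fold lower (-0.71 ± 0.06) and F10 1.31-fold lower (-0.38 ± 0.05). Ccr2 and F10 were thus higher in WT under isotype and lower in WT under anti-CTLA-4. Ly6c1 and Lyz2 passed narrowly (0.23 ± 0.10 and 0.09 ± 0.04, adjusted p = 0.045 and 0.0369). The Ly6c1 call ended without muMT anti-CTLA-4 replicate 1 (0.09, adjusted p = 0.557), without WT anti-CTLA-4 replicate 1 or 2 (0.19 and 0.27, adjusted p = 0.213 and 0.0808) and without either WT isotype library (0.23, adjusted p = 0.0542 each). That of Lyz2 ended without muMT anti-CTLA-4 replicate 1 or 2 (0.10 and 0.08, adjusted p = 0.15 and 0.274) and without WT anti-CTLA-4 replicate 1 or 2 (0.11 and 0.07, adjusted p = 0.0909 and 0.323). These comparisons share libraries with the antibody effects and are other readings of the same 4 means.

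**Figure D4:**
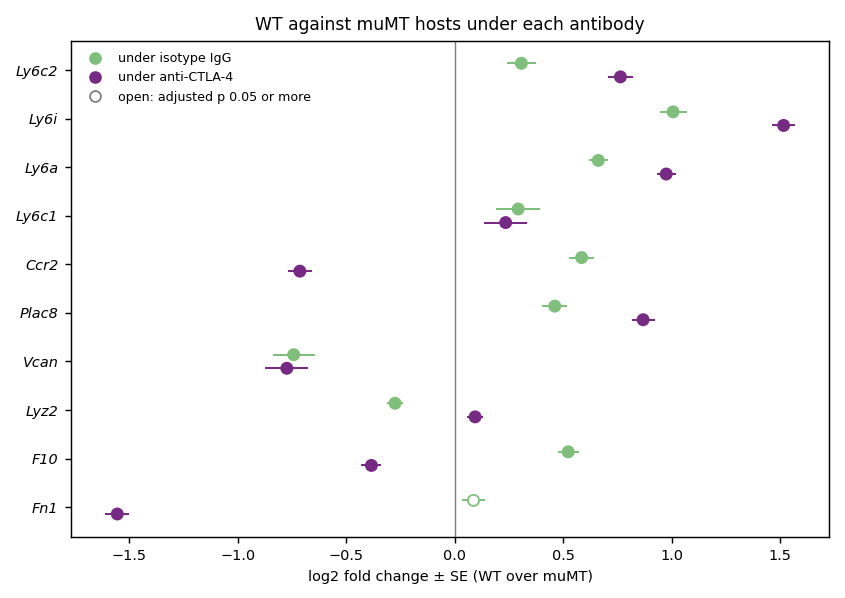
Log2 fold change ± SE of WT over muMT hosts for each of the 10 genes under isotype IgG (green) and anti-CTLA-4 (purple), with open symbols where the adjusted p was 0.05 or more. Ccr2 and F10 lie on opposite sides of 0 under the 2 antibodies, and Vcan lies at -0.74 and -0.77.

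Other genes of classical monocytes gave no single direction either. Of 28 tested genes of that list outside the members, 17 rose and 7 fell in WT (median 0.36) and 18 rose and 7 fell in muMT (median 0.34), beside medians of -0.0096 and -0.0034 over all tested genes. In WT, Clec4d and Clec4e, C-type lectin receptors for microbial glycolipids, rose by 2.21 ± 0.06 and 1.44 ± 0.05, and Ahnak rose by 1.28 ± 0.04. Chil3, a chitinase-like protein of monocytes and alternatively activated macrophages, fell by 2.05 ± 0.05 in WT and rose by 2.74 ± 0.05 in muMT, a difference of -4.79 ± 0.07 (adjusted p = 4.10e-30). S100a10 and Lgals3 rose in muMT by 0.96 ± 0.05 and 0.65 ± 0.04, and F13a1 fell by 0.81 ± 0.05. Of 14 tested genes of nonclassical monocytes, 3 rose and 4 fell in each host. Of all tested genes, 14.7% rose and 15.9% fell in WT, and 22.1% rose and 20.4% fell in muMT. Among the nonclassical genes, the count rising in muMT was near that share. Of these genes, Ear2 fell by 3.64 ± 0.07 in WT and rose by 0.98 ± 0.05 in muMT, and the fractalkine receptor Cx3cr1 fell by 0.76 ± 0.04 in muMT.

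Genes that rise as monocytes become macrophages moved both ways. Of 24 tested, 4 rose and 11 fell in WT (median -0.03) and 8 rose and 13 fell in muMT (median -0.13). Of all tested genes, 14.7% rose and 15.9% fell in WT, and 22.1% and 20.4% in muMT, so the count rising in WT was near that share. Cd63 and Cd81, tetraspanin genes, fell in WT by 0.66 ± 0.05 and 0.42 ± 0.05, and Zeb2 rose by 0.49 ± 0.05. In muMT, Apoe fell by 1.20 ± 0.05, Cd81 by 0.73 ± 0.05 and Cd72 by 0.70 ± 0.05, and the fatty-acid-binding protein gene Fabp5 rose by 0.88 ± 0.04. Of 39 tested interferon-stimulated genes, a class to which Ly6a and Ly6e are commonly added, 36 rose and 0 fell in WT (median 0.70) and 32 rose and 2 fell in muMT (median 0.47). For the count of 0 falling in WT, edgeR gave 0 at an unadjusted p under 0.05 as well, and DESeq2 called 0. Rsad2, Ifi205 and Oasl1 rose in WT by 1.02 ± 0.04, 1.40 ± 0.06 and 1.08 ± 0.05, and Gbp2, Iigp1 and Ifi47 rose in muMT by 0.93 ± 0.04, 1.17 ± 0.06 and 0.93 ± 0.05.

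Markers of other cells that express these genes were counted beside them. Endothelial cells carry Ly6a and Ly6c1, and of 22 endothelial markers 14 rose and 1 fell in WT, and 3 rose and 15 fell in muMT. Their summed level was 553 to 567 CPM in muMT isotype, 604 CPM in muMT anti-CTLA-4, 669 to 671 CPM in WT isotype and 833 to 843 CPM in WT anti-CTLA-4. The order of the groups differed from that of Ly6a, for which muMT anti-CTLA-4 was above WT isotype. A large part of that sum was Slc2a1, with means of 309 CPM in muMT isotype, 293 CPM in WT isotype and 355 CPM in WT anti-CTLA-4. Between the isotype groups the Slc2a1 mean was no higher in WT, whereas the sum was higher there. The part of Slc2a1 in the place of muMT anti-CTLA-4 was not tested. In muMT, Flt1 and Pecam1 rose by 1.67 ± 0.06 and 0.88 ± 0.05, while Ptprb and Slco1a4 fell by 1.41 ± 0.12 and 1.67 ± 0.14. None of the 22 was without a read and 3 were under 1 CPM, and their part in the Ly6a and Ly6c1 values was not tested. Endothelial cells lack CD45, which the sort selected for, and whether their RNA was carried along was not tested.

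T cells also carry Ly6a and Ly6c genes. Of 21 T and NK cell markers 8 rose and 2 fell in WT, and 0 rose and 8 fell in muMT (0 rising also at an unadjusted p under 0.05 in edgeR and by DESeq2). They summed to 103 to 108 CPM in muMT isotype, 73.0 to 76.7 CPM in muMT anti-CTLA-4, 77.4 to 79.2 CPM in WT isotype and 84.0 to 84.7 CPM in WT anti-CTLA-4. In muMT the treated libraries were thus the lowest for these markers and 3.00-fold higher than control for Ly6c2. All 21 had reads, 2 being under 1 CPM. Neutrophils carry Lyz2, and of their 13 tested markers 0 rose and 7 fell in WT (1 rising at an unadjusted p under 0.05 in edgeR, 0 by DESeq2), and 3 rose and 4 fell in muMT. The 16 listed summed to 403 CPM, 311 to 317 CPM, 326 to 329 CPM and 260 to 266 CPM in the same order of groups. Il1r2 and Csf3r made up most of it, at means of 247 and 103 CPM in muMT isotype and 176 and 108 CPM in WT isotype. S100a9 and S100a8 fell in WT by 2.52 ± 0.19 and 1.58 ± 0.18, where Lyz2 rose, and 9 of the 16, among them Ly6g, were under 1 CPM.

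Dendritic cells can carry Ccr2, Plac8 and Ly6c2. Of 14 tested markers 6 rose and 2 fell in WT, and 4 rose and 4 fell in muMT, with medians of 0.12 and 0.18. Summed over the 15 listed, they stood at 237 to 239 CPM in muMT isotype, 191 to 198 CPM in muMT anti-CTLA-4, 217 to 229 CPM in WT isotype and 245 to 254 CPM in WT anti-CTLA-4. Siglech, which microglia also express and which stands in both marker lists, and Tcf4, both of plasmacytoid dendritic cells, fell in muMT by 0.75 ± 0.06 and 0.61 ± 0.06, while Batf3 and Clec9a, of conventional type 1 dendritic cells, rose by 1.32 ± 0.12 and 1.54 ± 0.16. All 15 had reads, 3 being under 1 CPM, and the part of lymphocytes, neutrophils and dendritic cells in the members' values was not tested.

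CPM are shares of a pool that also holds resident macrophages. Summed over 11 genes, microglia markers were 2469 to 2610 CPM in muMT isotype, 1684 to 1704 CPM in muMT anti-CTLA-4, 2316 CPM in WT isotype and 2037 to 2086 CPM in WT anti-CTLA-4. Of these, 1 rose and 6 fell in WT, and 0 rose and 10 fell in muMT (0 rising also at an unadjusted p under 0.05 in edgeR and by DESeq2), where Tmem119 fell by 0.96 ± 0.05. Markers of border macrophages summed to 2950 to 3056 CPM in muMT isotype, 2862 to 2886 CPM in muMT anti-CTLA-4, 2254 to 2327 CPM in WT isotype and 1130 to 1133 CPM in WT anti-CTLA-4, led by a fall of the mannose receptor gene Mrc1 by 1.79 ± 0.04 in WT. The part of these changes in the members' values was not tested.

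**Figure D5:**
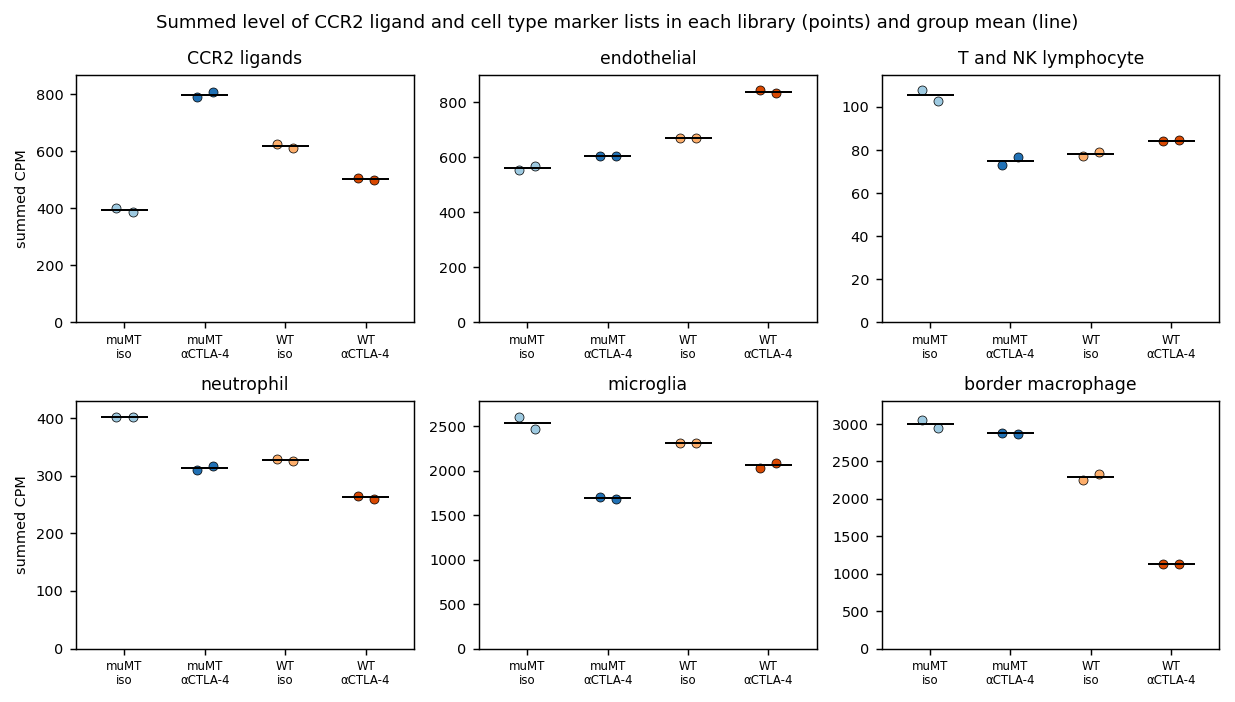
Summed CPM (linear axes from 0) of the 4 CCR2 ligand genes and of marker lists for endothelial cells, T and NK lymphocytes, neutrophils, microglia and border macrophages in each library (points), with group means as lines. The ligand sum is highest in muMT anti-CTLA-4, at 790 to 807 CPM, and border macrophage markers are lowest in WT anti-CTLA-4, at 1130 to 1133 CPM.

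Outside the set, the genes closest to Ly6c2 and to Ccr2 were looked up among 9755 genes with a mean of at least 5 CPM, by the root mean square difference of centred log2 CPM over the 8 libraries. Nearest to Ly6c2 were Smpdl3b, a lipid phosphodiesterase gene (0.14), Bst1, an ectoenzyme gene (0.21), and Upp1, which encodes uridine phosphorylase (0.22). Group means of Smpdl3b were 13.6 CPM in muMT isotype, 39.0 CPM in muMT anti-CTLA-4, 19.2 CPM in WT isotype and 63.3 CPM in WT anti-CTLA-4. Nearest to Ccr2 were Serpina3g, a serine protease inhibitor gene (0.10), Tfec, a transcription factor gene of macrophages (0.12), and Nudt2 (0.14). Group means of Serpina3g were 117 CPM, 273 CPM, 199 CPM and 183 CPM in the same order. Of the members themselves, the nearest to Ccr2 was F10 (0.28), and Ly6c2 lay 0.81 from it. The points are 8 libraries of 4 groups, so such likeness describes these groups only.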

How the data were processed

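RNA of sorted phagocytes was measured in 8 libraries, 2 in each of 4 groups taken from the sample labels, on stranded total RNA libraries per the labels' protocols. The deposited values were raw read counts for each gene, whole numbers laid out as STAR writes them, in which reads mapping to several places are set apart. Per the submitters' processing notes, cutadapt 5.0, STAR 2.7, mm39 and DESeq2 1.42.1 were used, and the gene annotation is not given in the sources used here. The reverse-strand column was used, since it held 23.3 to 26.5 times the reads of the forward one, and 4 summary rows were set aside.

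Counts were scaled by TMM, filtered by filterByExpr and tested with edgeR 4.0.16 in R 4.3.3 (quasi-likelihood, robust). The model had a mean for each of the 4 groups, with 4 residual degrees of freedom, and 5 contrasts were read from it. SE is the log2 fold change over the square root of F, and intervals are at 95%. Counting spread between libraries of a group was 1.77 to 7.73 per degree of freedom by chi-square, more than a random division of the same reads gives. Whether the same RNA was prepared or sequenced again was not tested. Log2 CPM used a prior count of 2. Sequences came from GENCODE M21 transcripts and RefSeq promoter windows (GRCm38.p6), aligned with Biopython 1.88. With counts of 0 the limit is 3 reads. That limit covers counting error only, and PCR copies are not separate molecules. Intervals rest on the spread between libraries as estimated in the fit, which may be technical.

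Text names all members, up to 4 tested genes of each list with the smallest p in a comparison, the 3 nearest genes to Ly6c2 and to Ccr2, Lyz1, Ly6g, the CCR2 ligands, and Ptprc, Itgam and Csf1r. Chromosomal neighbours (Ly6e, Ly6a2, Ly6k, F7, Proz) were named after their values were seen. Slc2a1, Il1r2 and Csf3r were named likewise, for their share of a marker sum. The members and lists were chosen with earlier results of these data known. Alternatives were DESeq2 size factors, total reads, no filter, counts of either strand, a block for the replicate number, the Wald test of DESeq2 1.42.0, only the libraries compared, no robust dispersion, and leaving out each library.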

Additional observations from a re-analysis of the deposited data

Results flagged for a closer look

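For 8 of the 10 genes the effect of anti-CTLA-4 differed between WT and muMT hosts by the interaction contrast of edgeR (adjusted p under 0.05, as for 37.3% of all tested genes). As log2 differences, WT minus muMT, they were -1.64 for Fn1, -1.30 for Ccr2, -0.91 for F10, 0.51 for Ly6i, 0.46 for Ly6c2, 0.41 for Plac8, 0.37 for Lyz2 and 0.31 for Ly6a. With 2 libraries per group, single libraries could not be tested for standing apart from their group.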

How the results depend on the processing

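Over 16 alternatives the 50 member values (10 genes in 5 comparisons) were recomputed 790 times, and 765 kept direction and side of the threshold, 21 lost a call, 4 gained one and none that was called changed sign. All losses were of Ly6c1 or Lyz2. Ly6c1 lost its muMT antibody call with DESeq2's Wald test (0.30, adjusted p = 0.0604), and its isotype host call with that test (0.29, 0.0752) and with the unstranded column (0.24, 0.0598). Under anti-CTLA-4 the host difference of Lyz2 was 0.0079 with the unstranded column (adjusted p = 0.877). The antibody effect on Ly6c1 in WT gained a call with only the libraries compared (0.25, adjusted p = 0.0297) or without either muMT isotype library (0.0334 and 0.0329). Same-numbered libraries did not deviate together over all tested genes (correlations of their deviations from -0.042 to 0.017). A pairing that touched few genes could be missed by this. With the replicate block, 4834 genes in place of 5069 were called in WT, and 2 member calls were lost, Ly6c1 and Lyz2 between hosts under anti-CTLA-4 (0.23 and 0.09, adjusted p = 0.0534 and 0.0643). With 2 libraries per group, a library left out leaves a lone one that is assumed to vary like the others. The interaction has no fit of only the libraries compared, since it uses all of them.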
